A study of Bos taurus with 54 samples.

Results

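The expression of 10 neutrophil granule genes was followed in blood RNA of calves before and after heat stress. They were MPO and ELANE of the primary granules, LTF, LCN2, MMP8, CATHL1, CATHL2, CATHL3 and PGLYRP1 of the secondary granules, and MMP9 of the tertiary granules. They were found by symbol, and all 10 were among the 32637 genes listed for each library. Whole blood of 15 Holstein male calves had been taken in the morning in the thermoneutral state (control, labelled Normal and 6AM) and in the evening after 12 h of heat exposure (labelled Heat Stress and 6PM). Red cells had been lysed with ammonium chloride, and the same RNA was used for 2 kits that sequence the 3′ ends of polyadenylated RNA. These were Lexogen QuantSeq 3′ and, from Takara, SMART-Seq v4 3′ DE. Each kit gave 13 control and 13 heat stress libraries here, with both times for 12 animals. The times of day were the same for all calves, so heat and hour of the day cannot be told apart. Animal 20, with 1 library per kit, is labelled Heat Stress while the study's list of libraries gives its only sample as a control, and both libraries were left out of the comparisons. That list numbers the calves from 1 to 15 and does not give the animal numbers. Matched to them in ascending order, it also reverses the time of the missing library for animals 7, 15, 23 and 29. The study's methods also give more samples before heat exposure than after it, while the labels give more after it than before. The times used here are those of the labels, and this disagreement was not resolved. It may reach the times of all samples, and with them the direction of every change given here. Leaving out animal 20 or changing its time alone does not address this.

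Neutrophils build their granules in sequence while they mature in the bone marrow. Primary (azurophil) granules, with myeloperoxidase and neutrophil elastase, are made first, at the promyelocyte stage. Secondary (specific) granules with lactoferrin follow in myelocytes, and tertiary (gelatinase) granules with MMP9 follow in later, band-stage cells. Transcripts of the early granule proteins are therefore mostly lost before a neutrophil enters the blood, while the protein stays stored. Cathelicidins, precursors of antimicrobial peptides, are counted among the secondary granule proteins here, although in cattle several of them are stored in the large granules particular to ruminant neutrophils.

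The 10 genes lie on 7 chromosomes of ARS-UCD2.0. ELANE was at chr7:43411323-43413728, LCN2 at chr11:98781839-98785927, MMP9 at chr13:74746991-74754302, MMP8 at chr15:5932955-5944195 and PGLYRP1 at chr18:53513719-53515780. MPO, at chr19:9242040-9258755, overlaps LPO (chr19:9216246-9246107), which encodes another peroxidase. LTF was at chr22:52953232-52986625. CATHL1 (chr22:51599665-51601097), CATHL3 (chr22:51618892-51621072) and CATHL2 (chr22:51641067-51642571) belong to a row of 7 cathelicidin genes within 98717 bases of chromosome 22. Only reads that mapped to 1 place were counted, so reads shared by near-identical cathelicidin copies could be missing, and the division of reads among these genes is uncertain. Of the counts of MPO, 89.9% in Takara and 59.2% in Lexogen were on its own strand, against at least 98.9% for each of the other 9 genes where any were counted.

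Counts on genes ranged from 5140595 to 20699030 per Takara library and from 4516761 to 58521751 per Lexogen library. Levels are counts per 1000000 counts on genes (CPM), not divided by gene length. A floor of 3 counts was worth 0.145 to 0.584 CPM in Takara and 0.0513 to 0.664 CPM in Lexogen. The Lexogen heat stress library of animal 15 was the deepest. In Takara, the up-regulated and down-regulated genes numbered 2325 and 1321 of 12620 tested with TMM scaling, and 1303 and 2185 with the total count as library size, which moved the median log2 fold change of all genes from -0.05 to -0.27.

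In Takara, MMP9 of the tertiary granules and LTF and LCN2 of the secondary granules were up-regulated after heat stress, while the primary granule gene ELANE was not differentially expressed and its median was lower. MMP9 rose by 2.44 on the log2 scale, LTF by 1.45 and LCN2 by 0.67. These 4 genes were the members that passed the filter on low counts. The other 6 had few counts, and among them CATHL1, CATHL2, CATHL3 and PGLYRP1 were called up-regulated when all expressed genes were tested.

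**Figure D1:**
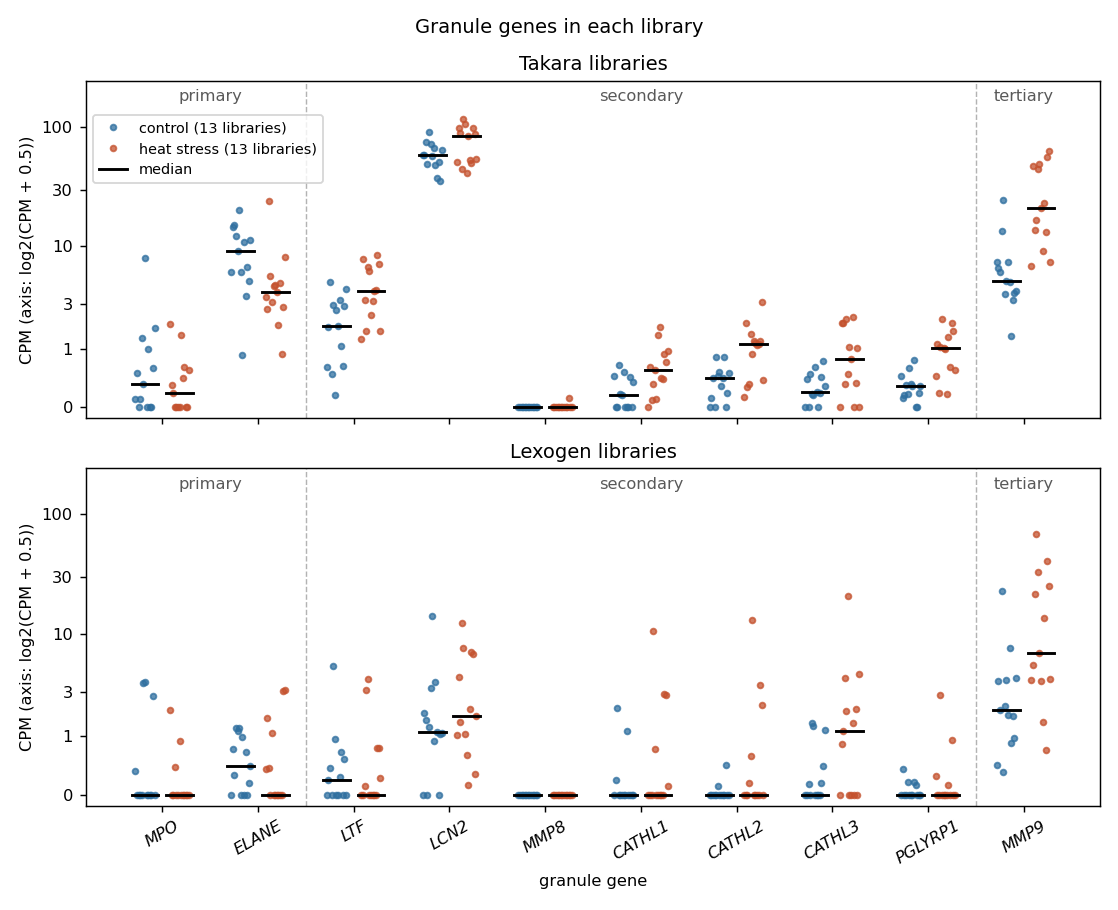
Level of each granule gene in each library (points) with the median of 13 libraries (bars), for control (blue) and heat stress (orange), in Takara (top) and Lexogen (bottom), on an axis of log2(CPM + 0.5) labelled in CPM. In Takara the median of MMP9 was 4.96 CPM in control and 21.02 CPM after heat stress, and that of ELANE was 9.18 and 3.96 CPM; in Lexogen most genes other than LCN2 and MMP9 had a median at or near 0.

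ELANE encodes neutrophil elastase, a serine protease of the primary granules. In Takara it ranged from 0.837 to 20.3 CPM in control (median 9.18, mean 9.36 ± 5.41, SD, n = 13) and from 0.871 to 23.97 CPM after heat stress (median 3.96, mean 5.40 ± 5.86, SD, n = 13). The highest library of all was that of animal 12 after heat stress, and it was the only heat stress library above the control median. The log2 fold change was -0.62 (SE 0.38, adjusted p = 0.224, edgeR quasi-likelihood test with Benjamini-Hochberg adjustment over 12620 genes). The level was lower after heat stress in 9 of 12 animals, from -2.38 (animal 36) to 1.74 (animal 19) on the scale of log2(CPM + 0.5). Without animal 12 the fold change was -0.98 and ELANE was down-regulated (edgeR, adjusted p = 0.0305).

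MPO encodes myeloperoxidase, which makes hypochlorous acid from hydrogen peroxide and chloride. It was detected in 9 of 13 control and 7 of 13 heat stress libraries of Takara. The control levels ran from 0 to 7.95 CPM with a median of 0.270, and the heat stress levels from 0 to 1.92 CPM with a median of 0.152. The 85 counts of the control library of animal 18 made up much of the 166 control counts. With all expressed genes tested, the log2 fold change was -1.31 (SE 0.83, edgeR, adjusted p = 0.267). It was lower after heat stress in 7 of 12 animals and higher in 4.

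LTF encodes lactoferrin, the iron-binding protein that defines the secondary granules. In Takara it ranged from 0.135 to 4.84 CPM in control (median 1.84, mean 2.09 ± 1.51, SD, n = 13) and from 1.31 to 8.32 CPM after heat stress (median 4.01, mean 4.41 ± 2.48, SD, n = 13). The groups overlapped, with 5 heat stress libraries above every control library and 5 control libraries below every heat stress library. The log2 fold change was 1.45 (SE 0.42, edgeR, adjusted p = 0.0109), and LTF was higher in 9 of 12 animals. The largest differences were those of animals 16 (1 count in control and 71 after heat stress) and 36 (3 and 86 counts). The Takara control libraries of animals 16 and 36 had 53.5% and 57.9% of their reads not counted on a gene. That of animal 32 had 52.8%, and no other Takara library had more than 47.3%. Whether this bears on the changes in these animals was not tested.

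LCN2 encodes lipocalin 2, which withholds iron from bacteria by binding their siderophores. It ranged from 35.6 to 91.2 CPM in control (median 57.9, mean 58.8 ± 15.2, SD, n = 13) and from 41.3 to 116.5 CPM after heat stress (median 84.4, mean 74.7 ± 26.4, SD, n = 13). In heat stress, 7 of the 13 libraries were above the control median, and 4 were above every control library. The log2 fold change was 0.67 (SE 0.21, edgeR, adjusted p = 0.0177), with higher levels in 8 of 12 animals. The call was lost with the total count as library size (log2 fold change 0.34, adjusted p = 0.123), without animal 36 (0.59, adjusted p = 0.0536) and without animal 40 (0.57, adjusted p = 0.0558).

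MMP9 encodes gelatinase B, the metalloproteinase for which the gelatinase granules are named. It ranged from 1.42 to 24.6 CPM in control (median 4.96, mean 7.03 ± 6.04, SD, n = 13) and from 6.76 to 63.5 CPM after heat stress (median 21.02, mean 28.6 ± 20.4, SD, n = 13). Every heat stress library was above the control median, 5 were above every control library, and 9 control libraries were below every heat stress library. The log2 fold change was 2.44 (SE 0.45, edgeR, adjusted p = 0.000545). The level was higher in 11 of 12 animals, and animal 3 had 7.32 CPM in control and 6.76 CPM after heat stress.

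Of the 4 granule genes tested in Takara, 3 were up-regulated, where 28.9% of all genes tested were called and 18.4% were up-regulated. The 3 calls also held in the fit that blocks on animal, with log2 fold changes of 2.14 for MMP9, 1.503 for LTF and 0.57 for LCN2 (edgeR, adjusted p = 0.0112, 0.0254 and 0.0396). With animal 20 counted as a control, edgeR called 0 of the 4 (MMP9 1.41, adjusted p = 0.108) and 0 of 12652 genes, with 3804 at an unadjusted p under 0.05; counted as heat stress, it left the 3 calls. A gene with few counts passes the filter more readily when its level is high in 1 of the groups, so these 4 genes do not stand for all 10. When every gene with at least 1 count was tested, 7 of the 10 were up-regulated, where 14.7% of the 24553 genes were up-regulated. By class these were 0 of the 2 primary genes, 6 of the 7 secondary genes and the tertiary gene MMP9. The median log2 fold change was -0.97 over the primary genes and 1.90 over the secondary genes, beside 0.03 over all genes tested. Most genes behind these 2 class medians had few counts, among them MMP8 with 1 count in Takara.

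**Figure D2:**
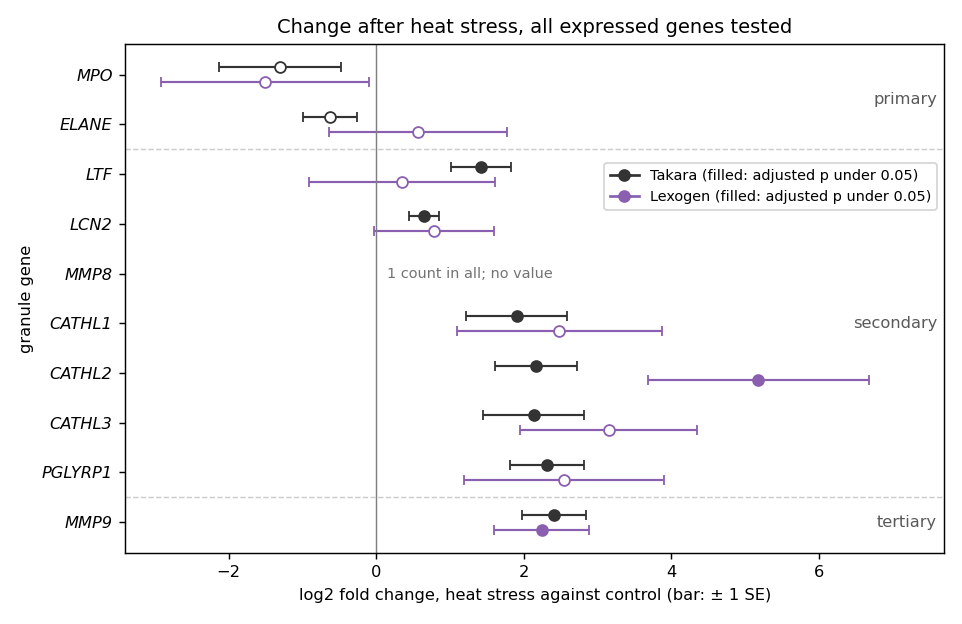
Log2 fold change (points) ± 1 SE (bars) of each granule gene after heat stress against control, in Takara (black) and Lexogen (purple), with all expressed genes tested; filled points have an adjusted p under 0.05. Both primary genes have open points in both kits, and 7 Takara and 2 Lexogen points are filled, all of them to the right of 0.

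The 3 cathelicidin genes and PGLYRP1 were measured with few reads, close to the floor of 3 counts. CATHL1, the precursor of bactenecin 1, had a median of 0.135 CPM in control (0 to 0.611) and 0.504 CPM after heat stress (0 to 1.76) in Takara. Its log2 fold change was 1.90 (SE 0.68, edgeR, adjusted p = 0.0463), and it was higher in 9 of 12 animals. CATHL2, the precursor of the proline-rich peptide Bac5, had a median of 0.363 CPM in control (0 to 0.789) and 1.15 CPM after heat stress (0.101 to 3.15). In heat stress, 9 of its 13 libraries were above every control library, and it was higher in 10 of 12 animals (log2 fold change 2.17, SE 0.56, edgeR, adjusted p = 0.00822).

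CATHL3, the precursor of Bac7, had a median of 0.167 CPM in control (0 to 0.703) and 0.732 CPM after heat stress (0 to 2.25). It was higher in 7 of 12 animals and lower in 4 (log2 fold change 2.13, SE 0.68, edgeR, adjusted p = 0.0278). PGLYRP1, a peptidoglycan recognition protein that kills bacteria, had a median of 0.248 CPM in control (0 to 0.726) and 1.03 CPM after heat stress (0.147 to 2.14), and it was higher in 10 of 12 animals (log2 fold change 2.31, SE 0.50, edgeR, adjusted p = 0.00208). With the animal as a block, CATHL2 and PGLYRP1 kept the call (edgeR, adjusted p = 0.0185 and 0.0127), and CATHL1 and CATHL3 lost it (adjusted p = 0.120 and 0.231). In this test of all expressed genes, CATHL1 also lost its call when any 1 of 10 of the 14 animals was left out. CATHL3 lost it for 3 of the 14, and LCN2, in this test and not the filtered one above, for 2. Without animal 7 these 3 genes all lost it, which left 4 called granule genes.

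MMP8, the neutrophil collagenase, was the member with the fewest reads. Takara gave 1 count in 1 heat stress library and none in the other 25, and Lexogen gave none in 26 libraries, so no change was detectable at this depth.

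Single genes of the classes were then compared within animals, in the same 12 Takara pairs. Each difference was the log2 change of a gene minus that of another, on the scale of log2(CPM + 0.5). ELANE alone stood for the primary genes, since MPO failed the filter. The other primary granule genes, described below, did not all go with ELANE. The exact two-sided sign-change test over 12 animals can give no p below 0.000488, and 7 such comparisons were made, 6 in Takara and 1 in Lexogen. The tertiary gene MMP9 changed more than the primary gene ELANE by 2.57 ± 2.35 (SD, n = 12; exact permutation p = 0.00342, adjusted 0.0120), in 11 of 12 animals. LTF changed more than ELANE by 1.79 ± 2.30 (exact permutation p = 0.0200, adjusted 0.0467), in 9 of 12. LCN2 changed more than ELANE by 1.04 ± 1.48 (exact permutation p = 0.0352, adjusted 0.0492), also in 9 of 12, and with a pseudocount of 0.1 CPM the adjusted p was 0.0595.

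Between single genes of the later classes, MMP9 changed more than LCN2 by 1.53 ± 1.16 (SD, n = 12; exact permutation p = 0.000977, adjusted 0.00684), in 11 of 12 animals. MMP9 and LTF differed by 0.78 ± 1.21 (exact permutation p = 0.0498, adjusted 0.0581), in 8 of 12, which did not pass after adjustment. The 2 secondary genes also differed, since the change of LCN2 was smaller than that of LTF in 9 of 12 animals, by -0.75 ± 1.08 (exact permutation p = 0.0313, adjusted 0.0492). LTF, LCN2 and MMP9 were all higher after heat stress in 7 of 12 animals, and ELANE was lower in 5 of these 7.

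**Figure D3:**
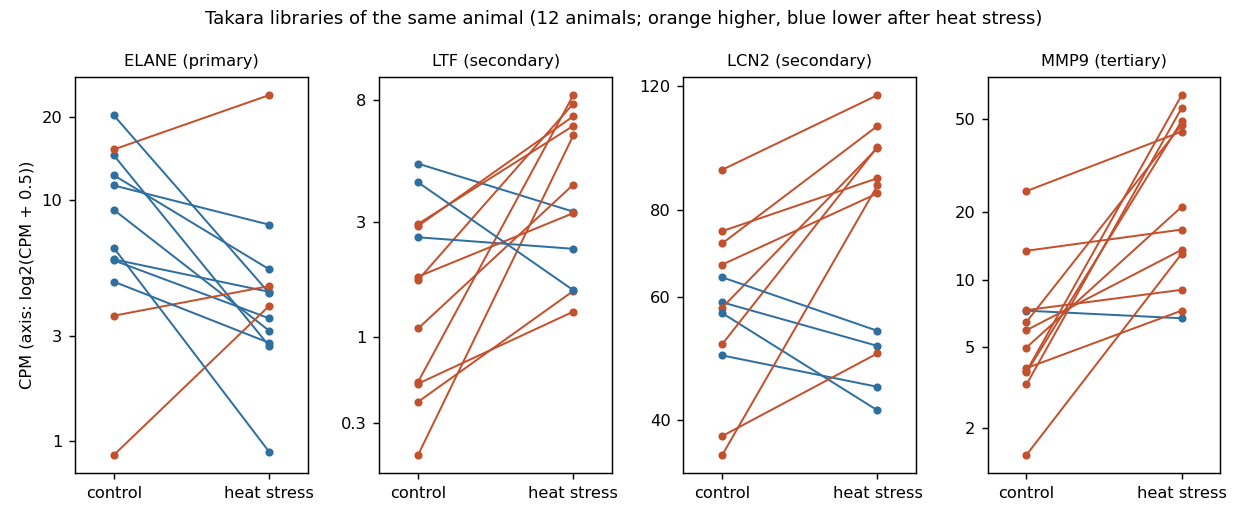
CPM of ELANE, LTF, LCN2 and MMP9 in the Takara control and heat stress libraries of 12 animals, each line 1 animal (orange when higher and blue when lower after heat stress), on axes of log2(CPM + 0.5) that differ between panels. The line falls in 9 animals for ELANE, 3 for LTF, 4 for LCN2 and 1 for MMP9.

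The sample numbers form 2 separate series, of 8 and 7 animals, and these were examined as a possible batch. Animals 16, 32 and 36, whose Takara control libraries had the most reads not counted on a gene, all belong to series 2. The part of this in the values by series was not tested. MMP9 was up-regulated in Takara within series 1 (log2 fold change 2.20, edgeR, adjusted p = 0.0202) and within series 2 (2.72, adjusted p = 0.0366). LTF was at 0.72 in series 1 (adjusted p = 0.18) and at 2.95 in series 2 (adjusted p = 0.0365), and it was higher in 3 of 6 and in 6 of 6 animals. ELANE was at -0.04 in series 1 and at -1.40 in series 2 (edgeR, adjusted p = 0.968 and 0.0556). LCN2 was at 0.62 and 0.75, and passed in neither (edgeR, adjusted p = 0.11 and 0.15).

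The differences between single genes were computed within each series as well. MMP9 minus ELANE was 1.59 in the 6 animals of series 1 (exact permutation p = 0.125) and 3.55 in the 6 of series 2 (exact permutation p = 0.0313, the smallest possible). LTF minus ELANE was 0.28 and 3.30 (exact permutation p = 0.656 and 0.0313), LCN2 minus ELANE 0.35 and 1.73 (exact permutation p = 0.5 and 0.0313), and LCN2 minus LTF 0.07 and -1.57 (exact permutation p = 0.844 and 0.0313). MMP9 minus LCN2 was 1.24 and 1.83 (exact permutation p = 0.0625 and 0.0313). MMP9 minus LTF was 1.31 and 0.25 (exact permutation p = 0.125 and 0.469). The interaction of series and time was called by edgeR for 0 of the 8 granule genes tested in Takara, with 2 (LTF and MPO) at an unadjusted p under 0.05, where 2.27% of 13767 genes were called. For LTF it was 2.17 (SE 0.74, edgeR, p = 0.00699, adjusted p = 0.127).

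In Lexogen, MMP9 and LCN2 passed the filter. MMP9 ranged from 0.261 to 22.8 CPM in control (median 1.97, mean 4.01 ± 5.99, SD, n = 13) and from 0.664 to 69.3 CPM after heat stress (median 6.73, mean 17.7 ± 20.3, SD, n = 13). The highest control library was that of animal 14 and the highest heat stress library that of animal 15. MMP9 was up-regulated (log2 fold change 2.21, SE 0.67, edgeR, adjusted p = 0.0445), where 5.55% of 11108 genes were called and 5.09% were up-regulated. It was higher in 7 of 12 animals. The call was lost with the animal as a block (log2 fold change 1.67, edgeR, adjusted p = 0.296) and when any 1 of 10 animals was left out, with adjusted p-values of up to 0.155, the highest of them without animal 15 (log2 fold change 1.72).

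LCN2 had a median of 1.15 CPM in control (0 to 14.2) and 1.71 CPM after heat stress (0.0981 to 12.4) in Lexogen, with a log2 fold change of 0.77 (SE 0.78, edgeR, adjusted p = 0.696). MMP9 minus LCN2 within animals was 1.15 ± 2.30 (SD, n = 12; exact permutation p = 0.112, adjusted 0.112), in 9 of 12 animals. With all expressed genes tested, 2 of the 9 members with counts were up-regulated, MMP9 and CATHL2, where 7.88% of 21596 genes were up-regulated. CATHL2 had 4 counts in all control libraries together, in 2 of them, and was detected in 5 heat stress libraries at up to 13.03 CPM. Its log2 fold change of 5.18 (SE 1.49, edgeR, adjusted p = 0.0230) was not called with the animal as a block (2.97, edgeR, adjusted p = 0.568), with DESeq2 (3.95, adjusted p = 0.327) or without animal 18 (3.77, edgeR, adjusted p = 0.103).

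CATHL3 was detected in 6 control and 8 heat stress libraries of Lexogen, at up to 1.44 and 21.1 CPM, and was higher in 7 of 12 animals and lower in 1 (log2 fold change 3.15, SE 1.20, edgeR, adjusted p = 0.0716). CATHL1 was detected in 3 and 5 libraries (log2 fold change 2.48, edgeR, adjusted p = 0.277), and 617 of its 714 counts in the kit came from the heat stress library of animal 15. PGLYRP1 was detected in 4 and 4 libraries (2.55, edgeR, adjusted p = 0.245). LTF was at 0.35, ELANE at 0.56 and MPO at -1.51, with SEs from 1.20 to 1.41 (edgeR, adjusted p = 0.907, 0.827 and 0.547).

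Set side by side in the same RNA, Takara gave the higher level of LCN2 in 12 of 12 control and 12 of 12 heat stress samples, with control medians of 57.4 CPM in Takara and 1.12 CPM in Lexogen. ELANE was higher in Takara in 12 and 11 of 12 samples, and LTF in 11 and 12 of 12. MMP9 was higher in Takara in 10 of 12 at each time, with heat stress medians of 18.9 and 10.2 CPM. CATHL3 after heat stress was higher in Takara in 4 and in Lexogen in 6 of 12. The time effect did not differ significantly between kits for any of the 5 granule genes tested, where 0 of 13354 genes were called (edgeR interaction, 526 at an unadjusted p under 0.05). The estimated difference, Takara minus Lexogen, was -0.31 (SE 0.50) for MMP9 and -0.82 (SE 0.67) for LCN2.

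The animals differed widely after heat stress. In Takara, the 5 heat stress libraries with the most MMP9 (animals 7, 15, 16, 36 and 40, at 44.3 CPM and above, with the next at 23.3) were also the 5 with the most LTF (at 6.07 CPM and above, with the next at 4.09). Of these 5 animals, 4 were also among the 5 highest for LCN2, 4 for CATHL2 and 4 for PGLYRP1, against 2 for CATHL1, 2 for CATHL3, 0 for ELANE and 0 for MPO. In these 5 libraries ELANE was between 0.871 and 4.45 CPM. Over all 13 heat stress libraries, LTF and MMP9 had r = 0.875 and rho = 0.830 (permutation p = 0.00021 and 0.00081, adjusted 0.00252 and 0.00972 over 12 relations). The 5 libraries, set apart by their MMP9 level itself, weigh on these values. Among the other 8, LTF and MMP9 had r = 0.493 and rho = 0.429 (exact permutation p = 0.204 and 0.299, adjusted 0.448 and 0.571 over 4 relations). In the 13 control libraries LTF and MMP9 had r = 0.0895 (permutation p = 0.77, adjusted 0.841 over 12 relations). After heat stress, r was 0.782 for LTF and LCN2 and 0.618 for LCN2 and MMP9 (permutation p = 0.0033 and 0.0281, adjusted 0.0198 and 0.0868).

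**Figure D4:**
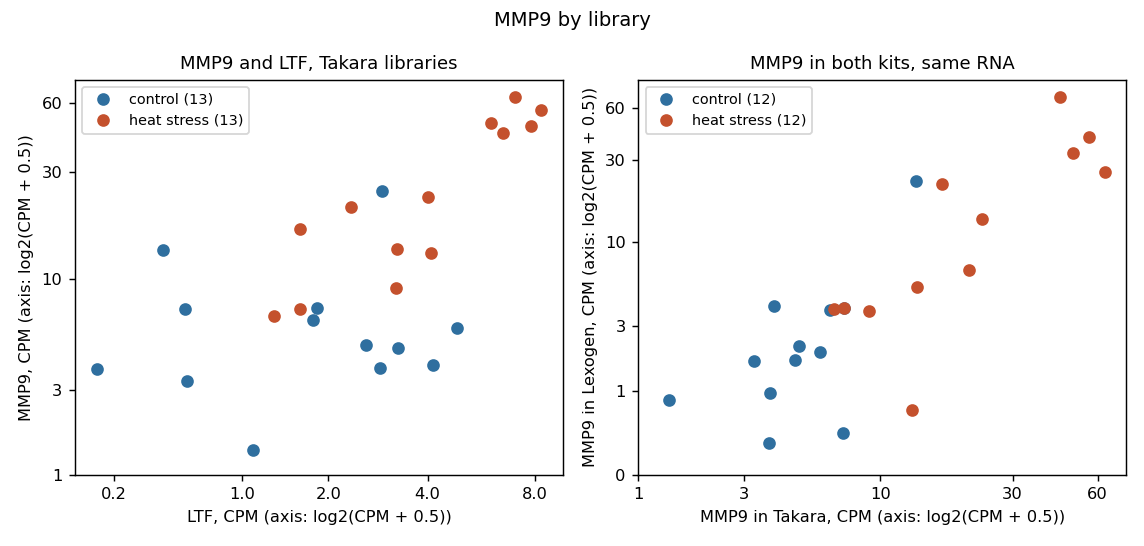
Left, MMP9 against LTF in the 26 Takara libraries; right, MMP9 in Lexogen against MMP9 in Takara for the 24 RNA samples sequenced with both kits, with control in blue and heat stress in orange, on axes of log2(CPM + 0.5) labelled in CPM. On the left, 5 heat stress libraries stand apart at the top right, at 44.3 CPM of MMP9 and above; 4 of these animals have a heat stress library in both kits and are the highest 4 by Takara on the right.

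The highest Lexogen levels of MMP9 after heat stress were those of animals 15 (69.3 CPM), 36 (40.8 CPM) and 16 (32.9 CPM), each of them among the 5 highest in Takara. Among the 8 animals with both kits outside these 5, the level in Takara and that in Lexogen had r = 0.488 and rho = 0.714 (exact permutation p = 0.224 and 0.0576, adjusted 0.448 and 0.230). Over all 12 heat stress samples with both kits, MMP9 had r = 0.812 and rho = 0.853 (permutation p = 0.00202 and 0.00078, adjusted 0.0202 and 0.0078 over 10 relations). Without the 2 samples farthest from the median, r was 0.783. In control, MMP9 of both kits had r = 0.624 and rho = 0.580 over 12 samples (permutation p = 0.0366 and 0.0516, adjusted 0.122 and 0.186 over 10 relations), and r = 0.204 without the 2 samples farthest from the median.

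Other granule genes were counted from lists of the same classes. Beside these lists and those that follow, 18.4% of all genes tested in Takara were up-regulated and 10.5% down-regulated. Of 8 other primary granule genes, 5 were tested in Takara, 2 were up-regulated and 1 was down-regulated, with a median log2 fold change of 0.07. BPI, which encodes the bactericidal permeability-increasing protein, had a median of 26.8 CPM in control (8.44 to 45.96) and 778.2 CPM after heat stress (18.0 to 2111). Its log2 fold change of 5.53 (SE 0.83, edgeR, adjusted p = 0.000286) went with 4.70 in Lexogen (SE 0.82, adjusted p = 0.00102). PRSS57, a serine protease of the primary granules, was down-regulated, from a median of 6.83 to 2.49 CPM (log2 fold change -0.84, edgeR, adjusted p = 0.0165). SRGN, the proteoglycan core on which granule proteins are packed in many blood cells, rose by 1.13, and CTSC and CD63 were at -0.28 and 0.07 without a call.

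Of 13 other secondary granule genes, 6 were tested in Takara and 3 were up-regulated, with a median of 1.43. TCN1, which binds vitamin B12, had medians of 311.1 CPM in control and 1763 CPM after heat stress (log2 fold change 3.45, SE 0.57, edgeR, adjusted p = 0.000318). HP (haptoglobin) was at 2.09 and OLFM4 (olfactomedin 4) at 1.69 (edgeR, adjusted p = 0.00120 and 0.00536). CHI3L1 and LYZ were at 0.41 and -0.15 and were not called. Of the 5 other tertiary granule genes, all were tested and 4 were up-regulated, with a median of 1.51. SLC11A1, a metal ion transporter of phagosomes, rose by 2.86, FCN1 (ficolin 1) by 1.55, ADAM8 by 1.51 and MMP25 by 0.81 (edgeR, adjusted p = 0.000412, 0.00342, 0.000884 and 0.0158), while QSOX1 was at 0.19. In Lexogen, 1 of 4, 2 of 6 and 4 of 5 of these genes were up-regulated in the 3 classes, where 5.09% of all genes tested were up-regulated.

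Both tested genes of the secretory vesicles, the compartment formed last, were up-regulated in Takara, ALPL (alkaline phosphatase) by 3.41 and ITGAM (the integrin alpha M chain) by 1.16 (edgeR, adjusted p = 0.000385 and 0.00265). Of 7 transcription factors of granule formation, 5 were up-regulated, and CEBPD, CEBPA and CEBPE had the largest log2 fold changes (2.42, 1.77 and 1.52, with edgeR adjusted p = 0.00267, 0.00980 and 0.0219). CEBPE, which drives the secondary granule genes, had medians of 3.05 CPM in control and 8.19 CPM after heat stress. In Lexogen 4 of the 7 factors were tested and 2 were up-regulated, CEBPD among them, while CEBPA and CEBPE failed the filter. Among 7 genes for inhibitors of granule proteases, 4 were tested and 2 were up-regulated, A2M at 0.83 and SERPINB1, an inhibitor of elastase, at 0.50 (edgeR, adjusted p = 0.00741 and 0.0240). The other 2 were not called, and 1 of them, at -0.39, was lower at an unadjusted p under 0.05 (edgeR). In Lexogen edgeR called 0 of the 4 inhibitor genes tested (0 at an unadjusted p under 0.05). Of the 5 proliferation genes, 0 were called by edgeR (0 at an unadjusted p under 0.05), with log2 fold changes of -0.30 to 0.06.

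Markers of the neutrophil itself moved with these genes. The summed level of 7 neutrophil markers, all of them detected, ran from 4713 to 21156 CPM in the Takara control libraries (median 14554) and from 5564 to 77811 CPM after heat stress (median 42808). Among them 6 were up-regulated, with a median log2 fold change of 1.80, including S100A8 (2.30), S100A12 (2.29) and S100A9 (2.18) (edgeR, adjusted p = 0.000563, 0.000521 and 0.000534). The fold changes of MMP9 (2.44), LTF (1.45), LCN2 (0.67) and ELANE (-0.62) stood on both sides of that median. Of 7 T cell markers, 4 were down-regulated, from a summed median of 1530 to 917 CPM, with CD3E, CD247 and CD3D changing most (-0.55, -0.53 and -0.48, with edgeR adjusted p = 0.0304, 0.0214 and 0.0349). Of 6 monocyte markers, CD163 and VCAN were up-regulated (1.62 and 0.60, with edgeR adjusted p = 0.00368 and 0.0480). In Lexogen 4 of the 7 neutrophil markers were up-regulated (median log2 fold change 1.35), and edgeR called 0 of the 7 T cell markers (0 at an unadjusted p under 0.05) and 0 of the 6 monocyte markers (2 higher at an unadjusted p under 0.05). Of the markers tested in Takara of eosinophils (3), B cells (6), platelets (4) and red cells (2), edgeR called 0, with 3 of the B cell markers lower at an unadjusted p under 0.05. In whole blood, more neutrophils and more RNA of a gene per neutrophil cannot be told apart, and the part of cell numbers in these changes was not tested.

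The genes whose levels were most like those of MMP9 over the 26 Takara libraries, after centring on each time, were ALPL (r = 0.887), SEMA4A (0.875), PTPN5 (0.871), PADI4 (0.869) and NLRX1 (0.869). In Lexogen the same genes had r with MMP9 of 0.494 to 0.684. For LTF they were LONP2 (r = 0.818), DNASE1L1 (0.815), UGP2 (0.808), ARPC2 (0.801) and BIN2 (0.794). The 2 lists had no gene in common. These libraries share depth and cell makeup, and the values of r are a description.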

How the data were processed

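Per the labels and the study's methods, forward reads were trimmed (Trimmomatic 0.39), checked (FastQC 0.11.9, MultiQC 1.14) and aligned to the ARS-UCD2.0 genome by STAR 2.7.10b. For each library the authors deposited raw counts per gene of reads that mapped once, with columns for both strands together, the sense strand and the antisense strand. Counts of both strands together were used, as the sources do not name the authors' choice. The 4 totals above the 32637 genes (such as reads on no gene, 32.2% to 57.9% of counted reads) were left out of library sizes. Without molecular identifiers, a count is a read and not a molecule.

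Groups came from the sample labels. Within each kit, heat stress was compared with control in edgeR 4.0.16 (R 4.3.3; filterByExpr, TMM scaling, quasi-likelihood test of time alone, Benjamini-Hochberg adjustment over all genes tested, adjusted p under 0.05). Libraries of the same animal number come from the same calf. The gene levels of such pairs deviated together (correlation over 0.1) in 11 Takara and 2 Lexogen pairs of 12, and a fit with the animal as a block was an alternative. The test of all genes with at least 1 count took in the members that failed the filter. DESeq2 1.42.0, other scalings, the sense counts, both times for animal 20, each sample number series and leaving out each animal in turn were further alternatives. Contrasts between genes used log2(CPM + 0.5) with exact sign changes over animals, in Python 3.11.15 with numpy 2.4.6. Correlations used permutations of the libraries, exact for fewer than 10. The steps were tested on simulated data.

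The members and gene lists were chosen with earlier results of these data known, and p-values are not adjusted over the members alone. All 10 members are named. Of each other list, up to 3 called Takara genes with the largest absolute log2 fold change are named, and of the other granule lists also every gene with a mean of at least 10 CPM. Up to 5 genes most like LTF and MMP9 are named by Pearson r; MPO failed the filter.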

Additional observations from a re-analysis of the deposited data

Results flagged for a closer look

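The 2 libraries of animal 20, outside the comparisons because the sources disagree on its time, had 11 granule gene levels of at least 3 counts above every control library. In the Takara library these were LTF at 13.03 CPM (highest control 4.84), LCN2 at 203.7 CPM (91.2), CATHL2 at 2.41 CPM (0.789), CATHL3 at 0.876 CPM (0.703), PGLYRP1 at 1.86 CPM (0.726) and MMP9 at 67.9 CPM (24.6). In the Lexogen library they were LTF at 5.49 CPM (5.22), LCN2 at 21.03 CPM (14.2), CATHL3 at 2.53 CPM (1.44), PGLYRP1 at 1.86 CPM (0.305) and MMP9 at 67.3 CPM (22.8). MMP8 in Takara, at 1 count, was under that minimum. Among these levels, LTF and LCN2 were also above every heat stress library in both kits, and MMP9 in Takara. ELANE of the same animal, at 1.31 CPM in Takara, was below 12 of 13 control and 12 of 13 heat stress libraries. These levels do not decide the time of the sample.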

How the results depend on the processing

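MPO, MMP8, the cathelicidins and PGLYRP1 had few reads, which limits what could be called. With the 3 calls of Takara and the 1 call of Lexogen as reference, testing all expressed genes gave 7 and 2 calls and DESeq2 gave 7 in Takara. With all expressed genes tested, 14.7% of all genes were up-regulated in Takara and 7.88% in Lexogen. The DESeq2 count is given without such a share. Sample number series 1 alone gave 1 in Takara, where 14.7% of 12791 genes were up-regulated, against 18.4% in the reference. Animal 20 counted as a control gave 0 in both kits (edgeR, with MMP9 of the 4 Takara genes and 0 of the 2 Lexogen genes at an unadjusted p under 0.05). In Lexogen the animal as a replicate block, the total count as library size and either series alone gave 0 as well (edgeR), with MMP9 at an unadjusted p under 0.05 in each but series 2, and DESeq2 called MMP9. From the 7 Takara calls among all expressed genes, the total count as library size left 3, animal 20 as a control 0 (5 unadjusted), series 1 alone 4 and series 2 alone 2. From the 2 Lexogen calls, the replicate block and either series alone left 0 (edgeR, unadjusted 1, 3 in series 1 and 1 in series 2) and animal 20 as a control 1. In every setting named so far that gave fewer granule gene calls, a smaller share of all tested genes was up-regulated as well. Whether the granule genes lost calls more often than other genes in these settings was not tested. Leaving out each animal in turn gave 2 to 4 and 4 to 7 calls in Takara, and 0 to 1 and 1 to 2 in Lexogen, with and without the filter. The alternatives that combine 2 choices, and those of the comparisons within animals, were chosen after seeing the data.

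Fold changes whose sign turned were all without a call. For MPO, series 2 alone gave 1.42 in Takara and 2.57 in Lexogen. In Lexogen, ELANE was -0.82 in series 2, LCN2 was -0.0717 in series 1, and LTF was -0.56 with the replicate block, -0.36 with animal 20 as a control and -0.31 without animal 15. The cause was not tested. In Takara the replicate block ended no call of the filtered test, and MMP9 was 2.14 with it.

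Within animals, series 1 alone gave 0.28 (LTF minus ELANE), 0.35 (LCN2 minus ELANE), 1.59 (MMP9 minus ELANE), 0.067 (LCN2 minus LTF, sign turned), 1.31 (MMP9 minus LTF), 1.24 (MMP9 minus LCN2) and, in Lexogen, 1.98 (MMP9 minus LCN2). Series 2 gave 0.25 for MMP9 minus LTF and -0.00038 for MMP9 minus LCN2 in Lexogen. A pseudocount of 0.1 CPM moved MMP9 minus LTF to 0.59 (exact permutation p = 0.189) and ended the adjusted call of LCN2 minus ELANE (1.09, adjusted p = 0.0595). Leaving out 1 animal gave 0.83 to 1.26 (LCN2 minus ELANE), -0.90 to -0.57 (LCN2 minus LTF), 0.60 to 0.93 (MMP9 minus LTF) and, in Lexogen, 0.78 to 1.47, and each of the first 3 lost its p under 0.05 without any 1 of 5, 6 and 8 animals, while that of Lexogen reached it without animal 32.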
